A study of Mus musculus with 4 samples.

Results

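The translation initiation and elongation factors of mouse were described in cerebellum that lacks active KDM6B in granule neurons. Members were chosen by symbol alone, which also takes in kinases, methyltransferases and binding proteins of the factors. The rule set aside the X- and Y-linked gene pair Eif2s3x and Eif2s3y. In the count files, 67 other symbols began with Eif1 to Eif6 or Eef1 to Eef2, followed only by lower-case letters or digits. Of these, 61 reached 1 CPM (read counts normalised to the scaled library size) in at least 2 libraries and are the members, of 55341 annotated genes in all and of 16617 genes tested. The rule itself used no difference between genotypes, although members were chosen with earlier results of these data known. Just inside this minimum was Eif4ebp3, at 1.71 and 0.448 CPM in Kdm6b-cKO and 1.40 and 0.648 CPM in WT cerebella. Just outside it was Eif4ebp1, at 0.202 and 1.12 CPM in Kdm6b-cKO and 0.324 and 0.972 CPM in WT cerebella. Eef1akmt3, Eef1akmt4 and Eif3j2 also stayed under the minimum with 1 to 8 counts a library, and Eif2c5 and Eif4e1b had 0 counts in all 4 libraries, which allows up to 0.302 to 0.336 CPM in each (3 counts, counting error only).

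The study sequenced poly(A) RNA from the cerebellum of littermate mice at postnatal day 14. The Kdm6b-cKO mice (n = 2) carried Atoh1-Cre together with Kdm6b fl/fl, and the WT mice (n = 2) carried Kdm6b fl/fl without Cre. Atoh1-Cre acts in granule neuron precursors (GNPs) and so in the cerebellar granule neurons (CGNs) they form, which leaves Kdm6b intact in the other cells of the tissue, and the loxP sites flank exons for the JmjC domain, so that the rest of the transcript can still be made and counted. Each library came from 1 mouse (cKO 1 and cKO 2, WT 1 and WT 2), and pairs of values below give replicate 1 and then replicate 2.

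Protein synthesis begins when eIF2 brings the initiator tRNA to the small ribosomal subunit, helped by eIF1, eIF1A and the large scaffold eIF3. The eIF4 proteins bind the mRNA cap, unwind the leader and bring that subunit to the mRNA, and eIF5 and eIF5B release eIF2 and join the large subunit. In elongation, eEF1A delivers each aminoacyl-tRNA, the eEF1B complex recharges eEF1A with GTP, and eEF2 moves the ribosome along the mRNA. Several factors exist as pairs of closely similar genes that differ by tissue. The best known is eEF1A: most cells make eEF1A1, whereas mature neurons and muscle switch to eEF1A2 after birth, and mice that lack Eef1a2 (wasted mice) lose motor neurons and die young. The level of eIF2 activity is set by 4 kinases that phosphorylate it under stress, and the level of cap-dependent initiation by the 4E-BPs, which hold eIF4E away from eIF4G.

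The 4 libraries held 8811849 to 9892363 counts in genes, and all values below are CPM scaled with trimmed-mean (TMM) factors of 0.9855 to 1.016. Kdm6b read 127 and 119 CPM in Kdm6b-cKO and 154 and 154 CPM in WT cerebella (log2 fold change −0.33 ± 0.08, SE, edgeR adjusted p = 0.0162), a call that held in none of the 4 fits with 3 libraries. WT 1 had the X- and Y-linked expression of a male, with 232.7 CPM over Y-linked genes, and the other 3 libraries that of females, with 0 to 0.672 CPM. Of 7 choroid plexus markers, 5 could be tested and 3 rose, and in cKO 1 they summed to 694.8 CPM, against 35.27 to 43.02 CPM in the other 3 libraries. The genes Gm42418 and CT010467.1, which overlap ribosomal RNA, summed to 964.5 and 1059 CPM in Kdm6b-cKO and to 4284 and 6773 CPM in WT cerebella. Of 8 markers of mature CGNs, 6 fell in Kdm6b-cKO cerebella (summed 4092 and 3638 CPM in Kdm6b-cKO, 4836 and 5010 CPM in WT cerebella). The other 2 did not pass: Gabrd at −0.30 (edgeR adjusted p = 0.121) and, above 0, Rbfox3 at 0.10 (edgeR adjusted p = 0.519). Of 8 markers of newborn CGNs, 7 rose (1019 and 1417 CPM in Kdm6b-cKO, 701.0 and 796.5 CPM in WT cerebella). Of 7 precursor markers tested, 5 rose (204.4 and 333.8 CPM in Kdm6b-cKO, 138.9 and 160.6 CPM in WT cerebella). Not passing were Mycn at 0.31 (edgeR adjusted p = 0.45) and, below 0, Gli2 at −0.59 (edgeR adjusted p = 0.185). Some other cell types also had lower marker sums in both Kdm6b-cKO libraries. The oligodendrocyte lineage had 7778 and 7877 CPM, against 9009 and 8545 CPM in WT cerebella (2 of 7 markers rose and 3 fell). Bergmann glia and astrocytes had 2753 and 2789 CPM, against 3042 and 3061 CPM in WT cerebella (1 of 6 rose and 2 fell, with 4 of 6 above 0). Purkinje cells had 4968 and 4648 CPM, against 5321 and 5242 CPM in WT cerebella (1 of 6 rose and 1 fell). Microglia (109.2 and 117.2 CPM, against 119.4 and 117.1 CPM in WT cerebella) were not lower in both libraries. Nor were endothelium, mural cells and blood (260 and 265 CPM, against 250.3 and 260 CPM in WT cerebella). In RNA of whole tissue, fewer cells of a type and less RNA per cell cannot be told apart.

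Among the 61 members, 1 rose and 1 fell in Kdm6b-cKO cerebella, and 59 did not pass the test. Eef1a2, which encodes the neuronal form of eEF1A, fell 1.49-fold, and Eif4ebp2, the main 4E-BP of brain, rose by 0.34 on the log2 scale. Across all 16617 tested genes, 1.87% were called higher and 2.17% lower (either direction, 4.04%) by edgeR's quasi-likelihood test at a Benjamini-Hochberg adjusted p of 0.05, so that 1 member in each direction out of 61 lies close to this background. At an unadjusted p of 0.05, 8 members were higher and 2 lower. The corresponding shares of all tested genes were 7.81% and 8.5%. DESeq2 called 0 members higher and 1 lower (4 and 1 at the unadjusted p), and limma-voom called 1 and 1 (8 and 2).

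Most factors differed little between genotypes. The log2 fold change lay within 0.1 of 0 for 32 members and within 0.2 for 47 (77.05%, against 61.78% of all tested genes), and it ranged from −0.58 for Eef1a2 to 0.38 for Eef1e1. The median SE was 0.10 for members and 0.14 for all tested genes, so the 77.05% and 61.78% do not compare genes measured equally well. The 95% interval of the difference stayed inside 0.5 on the log2 scale, either way, for 51 members. The median member sat at 0.06 and the median tested gene at 0.00, with 42 members above 0 and 19 below. Set against the WT mean, the median member was at 0.03 in cKO 1 and at 0.07 in cKO 2. In 24 members both Kdm6b-cKO libraries lay above both WT libraries, in 9 both lay below, and in 28 the groups overlapped. Among all tested genes, 23.2% lay wholly above and 23.2% wholly below. Summed over members, the factors took 9650 and 9956 CPM in Kdm6b-cKO and 9438 and 9703 CPM in WT cerebella, so that the ranges overlapped.

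**Figure D1:**
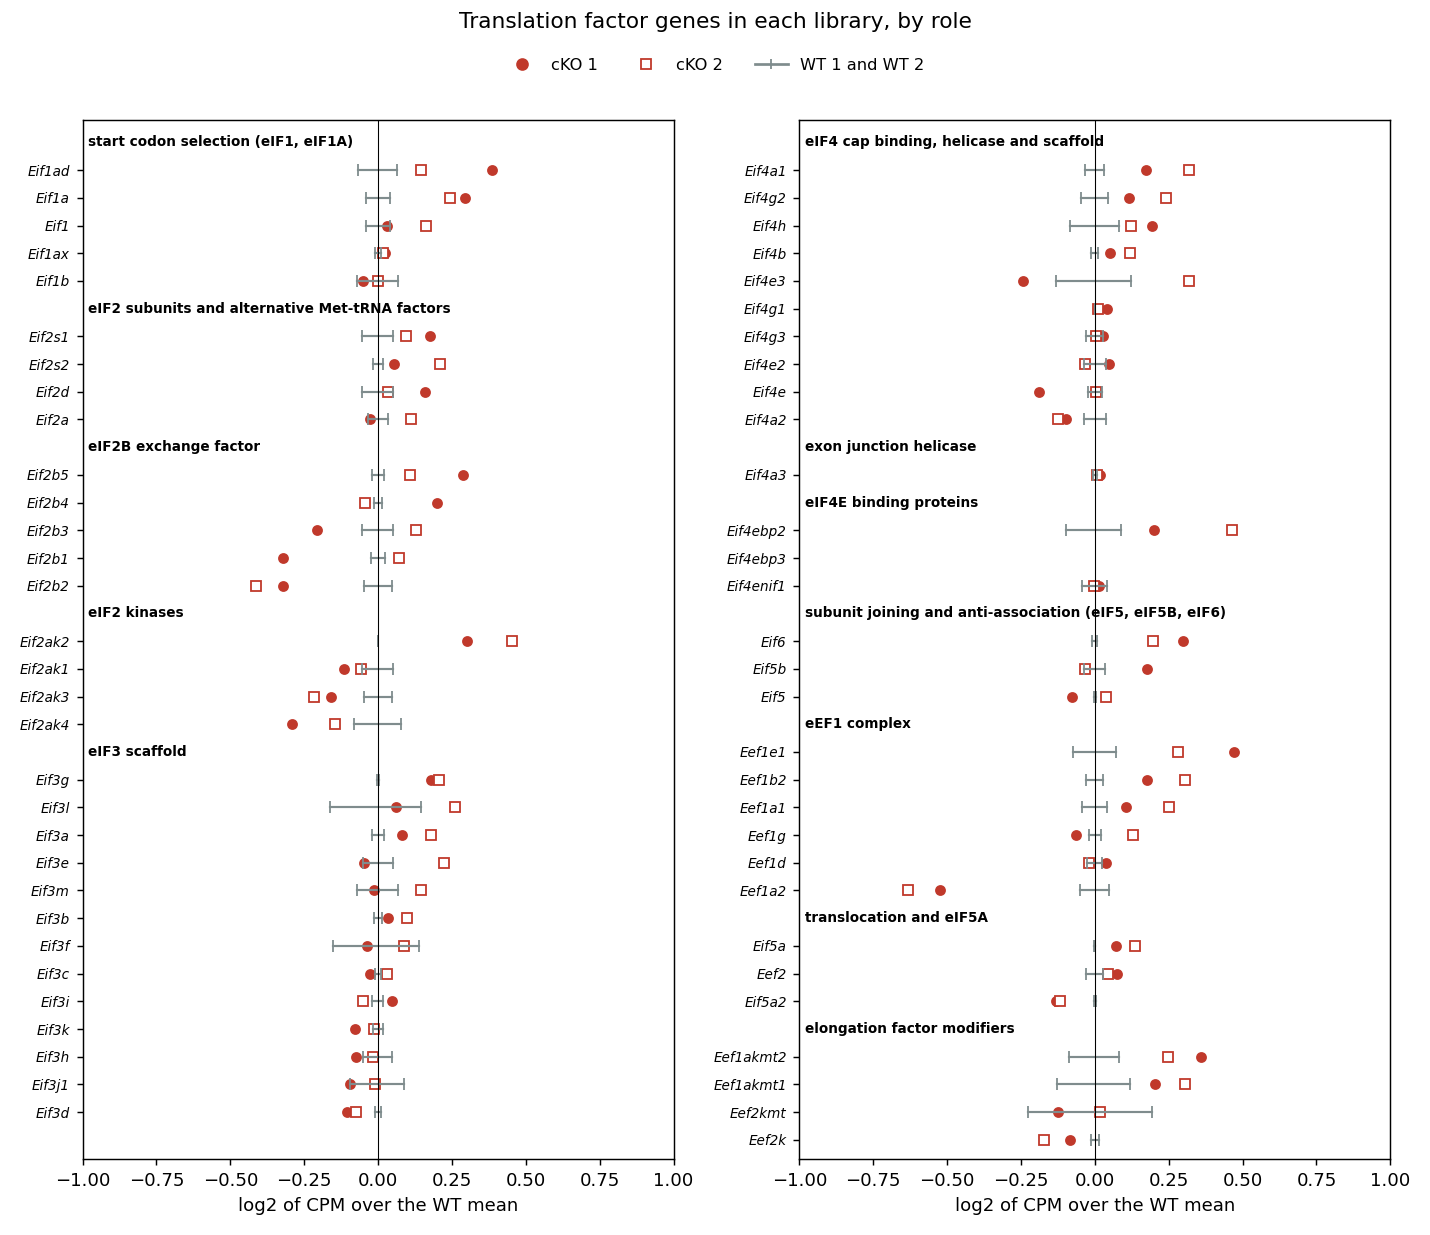
Each Kdm6b-cKO library against the WT mean, as log2 of the CPM ratio (horizontal axis), for the members grouped by role (rows). Red points are cKO 1 and cKO 2, grey bars span WT 1 and WT 2, and Eif4ebp3, with few counts, is listed without points; Eef1a2 stands farthest from the WT bar on the low side, at −0.52 in cKO 1 and −0.63 in cKO 2.

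Elongation carried both the most abundant members and the largest decrease. Per kilobase of annotated exon, Eef1a1 (518.2 CPM per kb, mean of 4 libraries), Eef2 (375.5) and Eef1a2 (354.7) ranked above every other member, well ahead of Eif1 (103.4), Eif4g2 (94.63) and Eif5a (87.14). The least abundant members were Eif4ebp3 (1.415), Eif2b3 (1.836) and Eif2ak2 (2.063). These 3 leading genes made up 33.2% and 32.9% of all member CPM in Kdm6b-cKO and 34.2% and 35.1% in WT cerebella.

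Eef1a2 had 615.7 and 571.2 CPM in Kdm6b-cKO and 855.3 and 915.0 CPM in WT cerebella. Every Kdm6b-cKO library was below every WT library, as in 23.2% of all tested genes. The means were 593.4 ± 31.4 CPM in Kdm6b-cKO and 885.2 ± 42.3 CPM in WT cerebella (SD, n = 2 each). The log2 fold change was −0.58 ± 0.07 (SE, 95% interval −0.73 to −0.43, edgeR adjusted p = 4.26e-05). With cKO 1 or cKO 2 left out it was −0.63 and −0.52 and no longer passed (edgeR adjusted p = 0.251 and 0.494), in fits where no gene at all passed, while without WT 1 or WT 2 it was −0.62 and −0.53 and passed, in fits where the lone WT library is assumed to vary like the Kdm6b-cKO libraries. With Gm42418, CT010467.1 and the protein-coding Lars2, which was also much lower in Kdm6b-cKO cerebella (85.07 and 91.52 CPM, against 331.1 and 363.1 CPM in WT cerebella), left out of the table, it stayed at −0.58. Eef1a2 shares no exact 75-base stretch with another annotated gene. Its decrease ran alongside the lower sums of mature CGN, oligodendrocyte, Bergmann glia and Purkinje cell markers and the higher sums of newborn CGN and precursor markers given above, and the part of cell composition in it was not tested.

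Eef1a1, the form that most non-neuronal cells and immature neurons use, had 1304 and 1442 CPM in Kdm6b-cKO and 1175 and 1246 CPM in WT cerebella. Both Kdm6b-cKO libraries were higher, as in 23.2% of all tested genes. The difference (0.18 ± 0.07 on the log2 scale, SE, 95% interval 0.04 to 0.33) did not pass (edgeR adjusted p = 0.173). Of its 75-base stretches, 25.4% also occur in other annotated genes (13 of them), so its level is uncertain. Because the 2 genes lay on opposite sides of 0, the balance of the pair necessarily differed more than either gene alone. Eef1a2 made up 36.1% and 32.2% of eEF1A transcripts per kilobase in Kdm6b-cKO, against 46.55% and 46.76% in WT cerebella (34.1% ± 2.8 in Kdm6b-cKO and 46.7% ± 0.15 in WT cerebella, SD, n = 2 each). The groups did not overlap, as was also so for the shares in most of the other paralog families below. The log2 ratio of Eef1a2 to Eef1a1 was lower by 0.76 in Kdm6b-cKO cerebella. With 2 libraries a group an exact permutation test cannot give a two-sided p below 0.333, so the shares are given without one. The sum of both genes was 1966 ± 66.1 CPM in Kdm6b-cKO and 2096 ± 92.4 CPM in WT cerebella (SD, n = 2 each), with single libraries at 1920 and 2013 CPM in Kdm6b-cKO and at 2030 and 2161 CPM in WT cerebella.

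The promoters of the pair are shown because the genes encode closely similar proteins from unlike start regions. Eef1a1 lies on chromosome 9 and Eef1a2 on chromosome 2, both on the minus strand. Each sequence runs from 100 bases before to 20 bases after the RefSeq start (GRCm38.p6), at chr9:78481705-78481824 and chr2:181156996-181157115, and capitals mark a GC box (GGGCGG or its complement CCGCCC) upstream of the start.
Eef1a1: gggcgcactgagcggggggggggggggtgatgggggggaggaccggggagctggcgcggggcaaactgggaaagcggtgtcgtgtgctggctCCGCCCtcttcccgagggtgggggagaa
Eef1a2: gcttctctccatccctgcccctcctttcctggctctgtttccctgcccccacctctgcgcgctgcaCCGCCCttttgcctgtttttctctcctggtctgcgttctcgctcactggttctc
The GC box lies 8 bases before the start of Eef1a1 and 34 bases before that of Eef1a2. A pyrimidine run was searched at the RefSeq start (C followed by at least 4 of C or T, first base within 10 bases of the start). TOP mRNAs, whose translation follows mTOR, begin with such a run. By these letters a run was found at Eef1a1 and not at Eef1a2. The RefSeq start of Eef1a1 lies 7427 bases from its GENCODE gene start, against 1 base for Eef1a2. Whether Eef1a1 transcripts begin at that RefSeq start was not tested. The run was present at 32.65% of the 49 members with a RefSeq promoter and at 37.22% of tested genes with one.

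**Figure D2:**
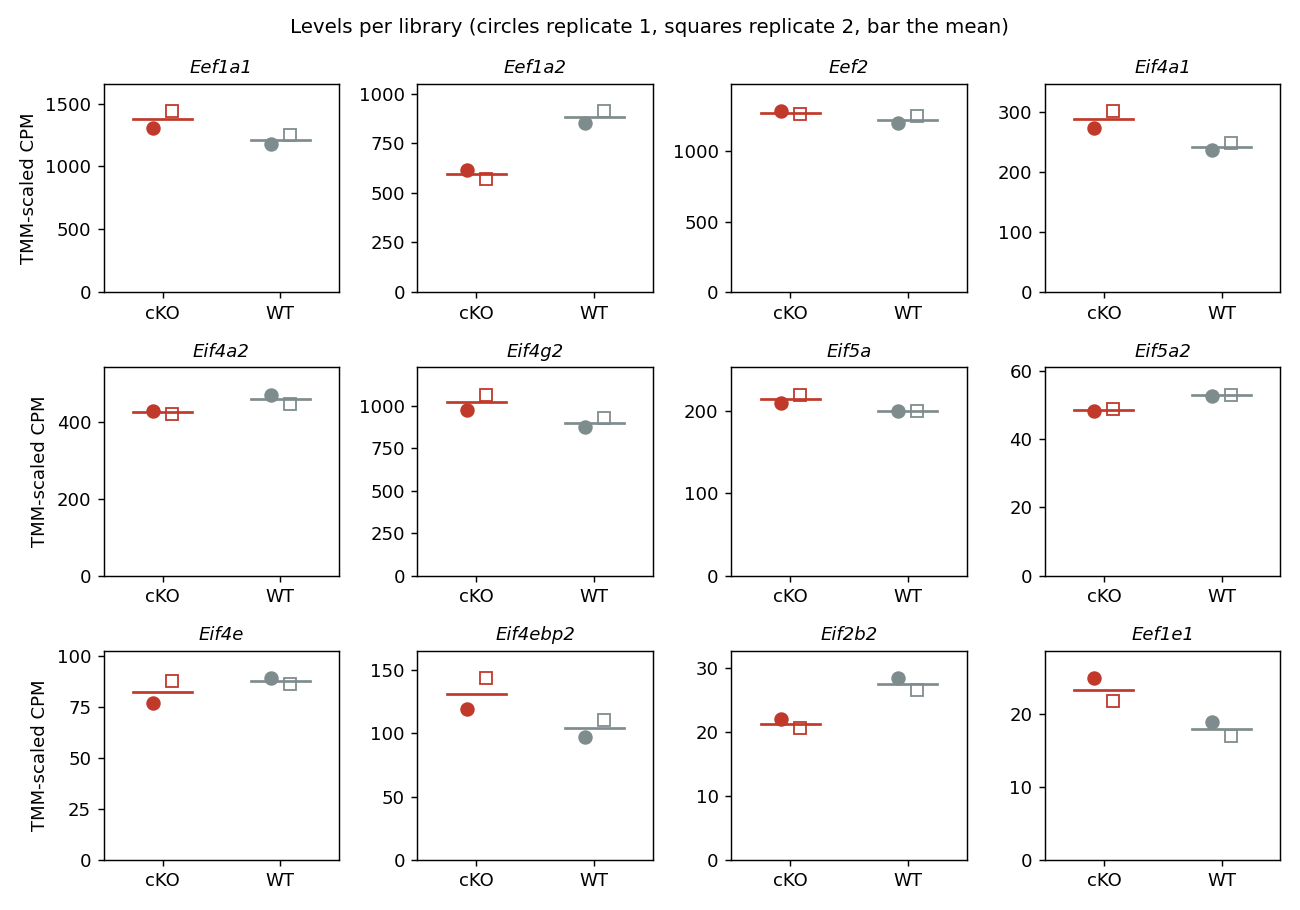
CPM of single members (panels, vertical axis from 0) in the Kdm6b-cKO and WT libraries, 1 point a library with the group mean. Eef1a2 lies at 571.2 to 615.7 CPM in Kdm6b-cKO and at 855.3 to 915.0 CPM in WT cerebella, and Eif4ebp2 at 119.4 to 143.6 CPM in Kdm6b-cKO and 97.3 to 110.7 CPM in WT cerebella.

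The other members of the eEF1 group did not pass the test. Eef1b2, the nucleotide exchange subunit, had 69.0 and 75.5 CPM in Kdm6b-cKO and 59.9 and 62.3 CPM in WT cerebella, and differed by 0.24 ± 0.09 on the log2 scale (SE, edgeR adjusted p = 0.156). Eef1e1, which sits in the multi-tRNA synthetase complex, had the largest increase of all members, with 24.9 and 21.8 CPM in Kdm6b-cKO and 18.9 and 17.1 CPM in WT cerebella (0.38 ± 0.15, SE, edgeR adjusted p = 0.175). In both genes the Kdm6b-cKO libraries lay above the WT libraries, as in 23.2% of all tested genes. The eEF1B partners Eef1d and Eef1g were at 0.01 and 0.04 with overlapping groups, and 37.97% of the 75-base stretches of Eef1g recur elsewhere in the annotation.

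Eef2, the translocase, had 1286 and 1262 CPM in Kdm6b-cKO and 1197 and 1247 CPM in WT cerebella (0.06 ± 0.07, SE, edgeR adjusted p = 0.721). Its inhibitory kinase Eef2k stood at 88.3 and 83.1 CPM in Kdm6b-cKO and at 94.5 and 92.7 CPM in WT cerebella (−0.13, edgeR adjusted p = 0.477). Neither difference passed. The groups did not overlap in either gene (23.2% of all tested genes lay wholly above and 23.2% wholly below). The eEF1A lysine methyltransferases Eef1akmt1 and Eef1akmt2 were at 0.25 and 0.31 with edgeR adjusted p of 0.519 and 0.375, and Eef2kmt, which methylates eEF2, was at −0.05.

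eIF5A, which carries hypusine and keeps ribosomes moving through difficult stretches, is also made from a pair of genes. Eif5a had 209.7 and 219.6 CPM in Kdm6b-cKO cerebella, against a WT mean of 199.7 ± 0.457 CPM (SD, n = 2), a difference of 0.10 ± 0.07 on the log2 scale (SE, edgeR adjusted p = 0.504). Eif5a2 had 48.3 and 48.7 CPM in Kdm6b-cKO and 52.8 and 53.0 CPM in WT cerebella (−0.12 ± 0.10, SE, edgeR adjusted p = 0.583). Neither passed, and the 2 genes lay on opposite sides of 0. The groups of each did not overlap (23.2% of all tested genes lay wholly above and 23.2% wholly below). Eif5a2 thus made up 9.821% and 9.497% of the pair per kilobase in Kdm6b-cKO and 11.1% and 11.1% in WT cerebella.

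In the eIF4 complex, the helicase pair stood on either side of 0 in the same way. Eif4a1, the form of dividing cells, had 273.7 and 302.5 CPM in Kdm6b-cKO and 237.2 and 248.0 CPM in WT cerebella. Its log2 fold change of 0.25 ± 0.07 (SE, 95% interval 0.10 to 0.40) narrowly missed the threshold (edgeR adjusted p = 0.0535). It passed with scaling by library size alone (0.28, edgeR adjusted p = 0.0244), and 22.5% of its 75-base stretches also occur in other annotated genes, the pseudogene Eif4a-ps4 among them. Eif4a2, the more abundant of the pair, had 428.2 and 421.0 CPM in Kdm6b-cKO and 470.5 and 446.5 CPM in WT cerebella (−0.11 ± 0.07, SE, 95% interval −0.25 to 0.03, edgeR adjusted p = 0.460). Per kilobase, Eif4a2 made up 56.0% and 53.0% of the pair in Kdm6b-cKO and 61.7% and 59.4% in WT cerebella. These shares did not overlap between groups, but neither did those in the Eef1a, Eif5a, Eif1, Eif1a and Eif4g families. Shares overlapped for Eif4e2, Eif4e3, Eif4ebp2 and Eif4ebp3. The sum of Eif4a1 and Eif4a2 overlapped, at 701.9 and 723.5 CPM in Kdm6b-cKO and 707.7 and 694.5 CPM in WT cerebella. Eif4a3, a helicase of the exon junction complex rather than of initiation, was level at 0.01 (edgeR adjusted p = 0.973).

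**Figure D3:**
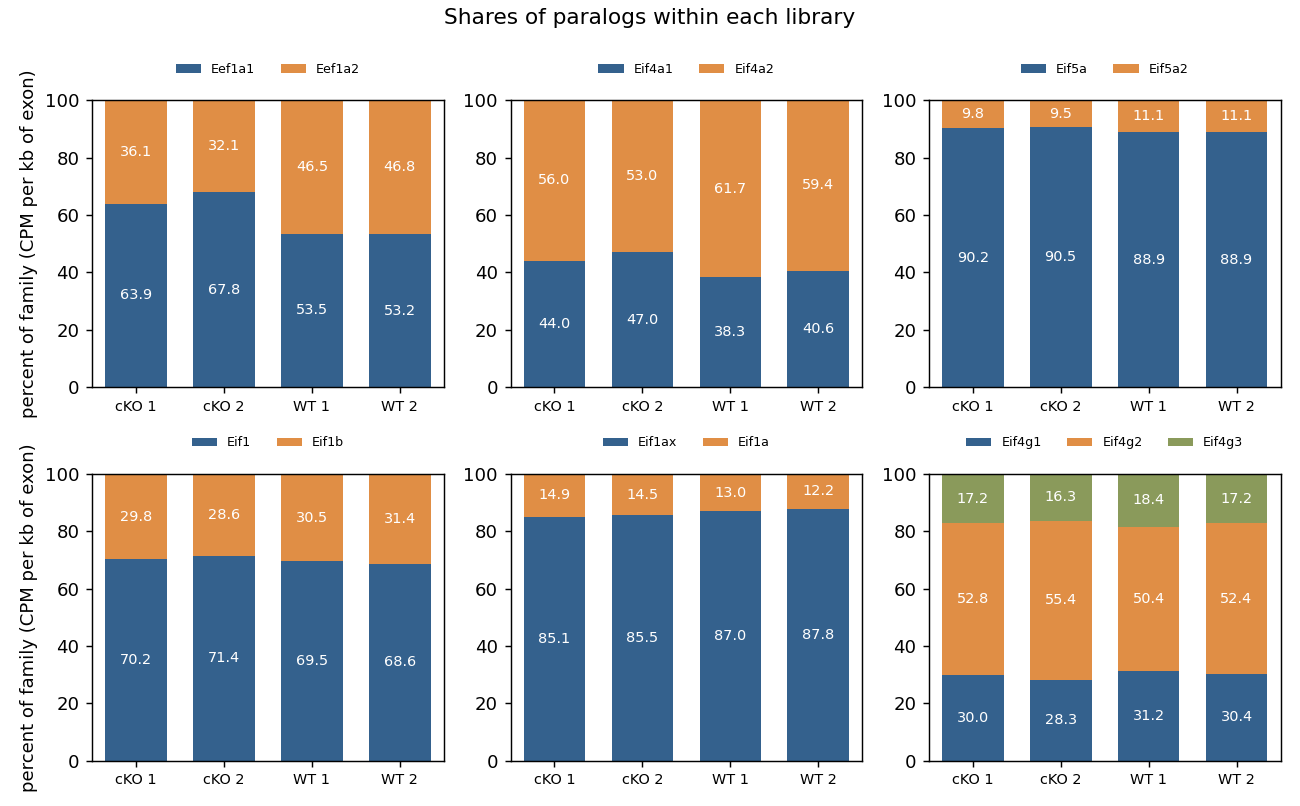
Share of each gene in its paralog family (stacked bars, percent of CPM per kb, axis from 0 to 100) in each Kdm6b-cKO and WT library. Eef1a2 stands at 32.2% to 36.1% in Kdm6b-cKO and at 46.55% to 46.76% in WT cerebella, and Eif4a2 stands at 53.0% to 56.0% in Kdm6b-cKO and 59.4% to 61.7% in WT cerebella.

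The start regions of the helicase pair differ as well and are shown from 100 bases before to 20 bases after the RefSeq start. Eif4a1 is at chr11:69672404-69672523 on the minus strand and Eif4a2 at chr16:23107368-23107487 on the plus strand (GRCm38.p6). Capitals mark a GC box as above or a CCAAT box (CCAAT or its complement ATTGG).
Eif4a1: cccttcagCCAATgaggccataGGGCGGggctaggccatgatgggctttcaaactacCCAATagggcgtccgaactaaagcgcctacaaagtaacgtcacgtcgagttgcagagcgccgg
Eif4a2: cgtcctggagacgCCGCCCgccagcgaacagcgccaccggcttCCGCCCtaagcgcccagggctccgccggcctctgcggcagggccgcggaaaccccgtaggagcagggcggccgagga
Eif4a1 has CCAAT boxes 92 and 43 bases before its start and a GC box at 78 bases, and Eif4a2 has GC boxes at 87 and 57 bases. In the 250 bases before the start, a GC box was found at 35 of the 49 members with a RefSeq promoter (71.43%), against 62.31% of tested genes and 35.36% of all genes with one. A CCAAT box was found at 15 members (30.61%, against 40.3% of tested genes). The E-box CACGTG, the site that MYC and its relatives bind, occurred at 11 members (22.45%, against 9.558% of tested genes and 6.86% of all genes), among them Eef2, Eif4a1, Eif4e, Eif4g1, Eif5a and Eif5a2. The ETS core CCGGAAG occurred at 12 (24.49%, against 14.17% of tested genes), TATAAA at 4 (8.163%, against 7.871%), and the cAMP response element TGACGTCA at 0 (against 2.966%). All were searched on both strands, and a match is a description of the letters only.

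The cap-binding proteins and scaffolds gave no call. Eif4e, which binds the cap, had 76.7 and 87.6 CPM in Kdm6b-cKO and 88.8 and 86.0 CPM in WT cerebella (−0.09 ± 0.09, SE, edgeR adjusted p = 0.674). Its relatives Eif4e2 and Eif4e3 also overlapped between groups. Of the scaffolds, Eif4g1 had 399.0 and 390.8 CPM in Kdm6b-cKO and 387.8 and 387.8 CPM in WT cerebella (0.03, edgeR adjusted p = 0.904). Eif4g2, a relative that lacks the eIF4E-binding part and is linked to cap-independent initiation, had 978.0 and 1066 CPM in Kdm6b-cKO and 873.9 and 930.1 CPM in WT cerebella (0.18 ± 0.07, SE, edgeR adjusted p = 0.186). Its groups did not overlap, nor did those of the helicase cofactors Eif4h (0.16, edgeR adjusted p = 0.272) and Eif4b (0.09, edgeR adjusted p = 0.601). Each was higher in Kdm6b-cKO cerebella without passing, and 23.2% of all tested genes lay wholly above. Of the 10 eIF4 members 8 lay above 0, with a median of 0.04, and 0 passed in edgeR (3 higher and 0 lower at the unadjusted p), in DESeq2 (2 and 0) or in limma-voom (3 and 0).

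Eif4ebp2 was the member that rose. It had 119.4 and 143.6 CPM in Kdm6b-cKO and 97.3 and 110.7 CPM in WT cerebella, without overlap (23.2% of all tested genes lay wholly above). The means were 131.5 ± 17.1 CPM in Kdm6b-cKO and 104.0 ± 9.47 CPM in WT cerebella (SD, n = 2 each). The log2 fold change was 0.34 ± 0.09 (SE, 95% interval 0.15 to 0.53, edgeR adjusted p = 0.0408). The call stood close to the threshold. It was lost in DESeq2 (adjusted p = 0.116), with upper-quartile scaling (edgeR adjusted p = 0.0607), with no filter (edgeR adjusted p = 0.201), and in edgeR without WT 1 (0.25, adjusted p = 0.411), without cKO 1 (0.47, adjusted p = 0.297) or without cKO 2 (0.20, adjusted p = 0.528). The ratio of Eif4ebp2 to its target Eif4e, per kilobase, was 1.62 and 1.70 in Kdm6b-cKO and 1.14 and 1.34 in WT cerebella. The gene spans 61428491 to 61452661 on chromosome 10 (GRCm38, minus strand), and its start region at chr10:61452650-61452769 is shown with its GC box, 46 bases before the start, in capitals.
Eif4ebp2: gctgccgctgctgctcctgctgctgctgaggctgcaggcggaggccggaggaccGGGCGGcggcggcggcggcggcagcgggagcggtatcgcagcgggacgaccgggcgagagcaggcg
Of the other eIF4E-binding genes, Eif4enif1 (4E-T, which carries eIF4E into the nucleus and to P-bodies) was level at 0.00. Eif4ebp3 was near the detection limit, shares 67.34% of its exon bases with an annotated gene on the same strand, and can be given no direction.

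Upstream of these steps, eIF2 and its regulators gave no call. Eif2s1, the alpha subunit that the stress kinases phosphorylate, had 43.4 and 41.0 CPM in Kdm6b-cKO and 39.8 and 37.0 CPM in WT cerebella (0.14). Eif2s2, the beta subunit, had 67.8 and 75.6 CPM in Kdm6b-cKO and 66.2 and 64.6 CPM in WT cerebella (0.13, edgeR adjusted p = 0.511). Together with Eif2a and Eif2d, which can deliver initiator tRNA in place of eIF2, all 4 members of this group lay above 0 by 0.04 to 0.14, and 0 passed in edgeR, DESeq2 or limma-voom (0 at the unadjusted p in each). Eif2s3x, the X-linked gamma subunit gene set aside with its Y-linked copy, had 95.2 and 89.3 CPM in Kdm6b-cKO and 61.3 and 83.7 CPM in WT cerebella (0.35 ± 0.11, SE, edgeR adjusted p = 0.0712). Its lowest library was WT 1, the library with male expression, and without it the difference was 0.14 (edgeR adjusted p = 0.767).

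The eIF2B complex reloads eIF2 with GTP, and mutations in its genes cause vanishing white matter disease in humans. Eif2b2, the beta subunit, had the second largest decrease of the members, with 22.0 and 20.6 CPM in Kdm6b-cKO and 28.4 and 26.6 CPM in WT cerebella (−0.37 ± 0.13, SE, edgeR adjusted p = 0.147). Eif2b5, the catalytic epsilon subunit, stood on the other side, with 59.0 and 52.1 CPM in Kdm6b-cKO and 49.0 and 47.6 CPM in WT cerebella (0.20, edgeR adjusted p = 0.329). Neither pair of groups overlapped (23.2% of all tested genes lay wholly below and 23.2% wholly above), and neither difference passed. The remaining subunits Eif2b1, Eif2b3 and Eif2b4 overlapped between groups. In edgeR and limma-voom 0 of the 5 subunits passed (0 higher and 1 lower at the unadjusted p in each), and 0 did in DESeq2 (0 and 0).

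Of the eIF2 kinases, 3 lay below 0 and 1 above, each with groups that did not overlap (23.2% of all tested genes lay wholly below and 23.2% wholly above), and 0 of the 4 passed in edgeR, DESeq2 or limma-voom (0 also at the unadjusted p in each). Eif2ak4 (GCN2, which senses amino acid shortage) had 29.0 and 32.1 CPM in Kdm6b-cKO and 37.5 and 33.6 CPM in WT cerebella (−0.22 ± 0.12, SE, edgeR adjusted p = 0.393). Eif2ak3 (PERK, of the endoplasmic reticulum) stood at −0.19 and Eif2ak1 (HRI, the haem-regulated kinase) at −0.09. Eif2ak2 (PKR, which binds double-stranded RNA) was the exception, with 11.3 and 12.5 CPM in Kdm6b-cKO and 9.17 and 9.18 CPM in WT cerebella (0.38 ± 0.20, SE, edgeR adjusted p = 0.358).

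Of the 5 start-codon factors, 0 passed in edgeR, DESeq2 or limma-voom (0 also at the unadjusted p in each), and 4 lay above 0, with a median of 0.10. Eif1, which guards start-codon choice, had 214.1 and 234.5 CPM in Kdm6b-cKO and 203.8 and 215.3 CPM in WT cerebella (0.10, edgeR adjusted p = 0.552), and the groups overlapped. Its paralog Eif1b made up 29.8% and 28.6% of the pair per kilobase in Kdm6b-cKO and 30.5% and 31.4% in WT cerebella. Eif1ax, the 1 member on the X chromosome, was at 164.9 and 163.9 CPM in Kdm6b-cKO and at 160.8 and 163.3 CPM in WT cerebella, a difference of 0.02. Its autosomal paralog Eif1a had 22.8 and 22.0 CPM in Kdm6b-cKO and 19.09 and 18.03 CPM in WT cerebella (0.27, edgeR adjusted p = 0.370), and Eif1ad, a nuclear protein with an eIF1A-like domain, was at 0.27 as well (edgeR adjusted p = 0.357).

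All 13 eIF3 subunits lay within 0.2 of 0, 8 above and 5 below, with a median of 0.03. In edgeR, DESeq2 and limma-voom 0 of them passed, and 0 did so at the unadjusted p. The range ran from −0.09 for Eif3d, whose exons overlap an annotated gene on the opposite strand over 43.3% of their bases, to 0.19 for Eif3g. Eif3a, the largest subunit, had 223.2 and 238.8 CPM in Kdm6b-cKO and 208.0 and 213.9 CPM in WT cerebella (0.13, edgeR adjusted p = 0.376). Eif3h, 12.7% of whose 75-base stretches recur in another annotated gene, had 82.6 and 85.8 CPM in Kdm6b-cKO and 89.8 and 83.9 CPM in WT cerebella (−0.05, edgeR adjusted p = 0.846).

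At the joining step, Eif5, which triggers GTP hydrolysis by eIF2, had 215.9 and 234.2 CPM in Kdm6b-cKO and 228.5 and 227.5 CPM in WT cerebella (−0.02, edgeR adjusted p = 0.937). Eif6, which keeps free large subunits from binding small ones, had 43.1 and 40.2 CPM in Kdm6b-cKO and 35.3 and 34.9 CPM in WT cerebella, without overlap (0.25 ± 0.11, SE, edgeR adjusted p = 0.255). Such separation with Kdm6b-cKO higher occurred in 23.2% of all tested genes. Eif5b, the joining GTPase, overlapped between groups. Here too 0 of 3 passed in edgeR and limma-voom (1 higher and 0 lower at the unadjusted p in each) or in DESeq2 (0 and 0).

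**Figure D4:**
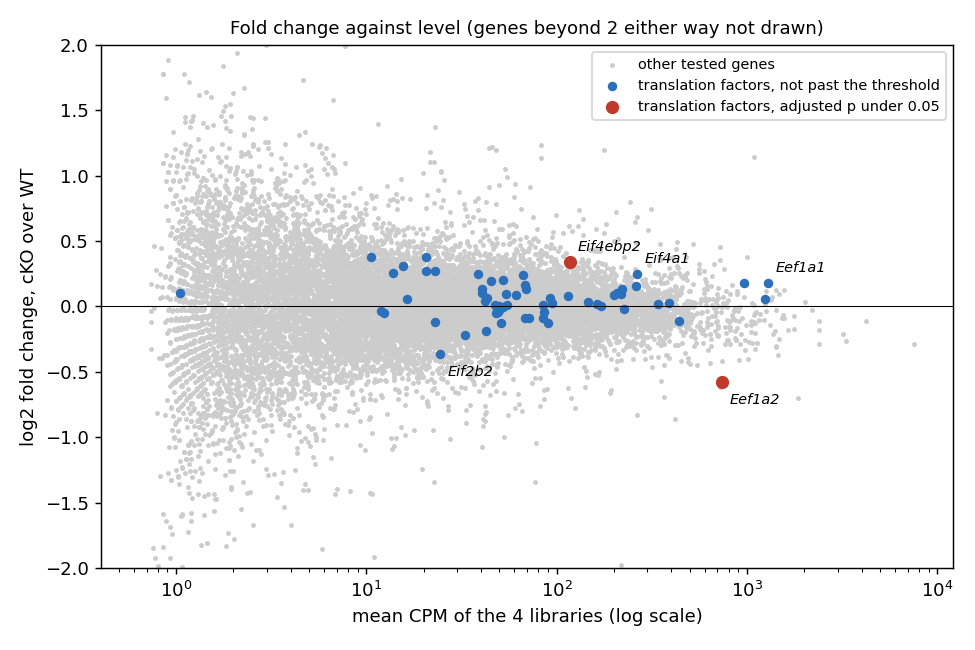
Log2 fold change, Kdm6b-cKO over WT (vertical axis), against mean CPM on a log axis for all tested genes (grey), the members not past the threshold (blue) and those past it (red). Genes beyond 2 either way are not drawn. The members lie between −0.58 and 0.38, and only Eef1a2 and Eif4ebp2 passed the test in edgeR.

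Other genes of the translation machinery were followed in lists. Of 54 tested, 2 rose and 0 fell in edgeR (5 higher and 2 lower at the unadjusted p), and their median log2 fold change was 0.00. Among all tested genes, edgeR called 1.87% higher and 2.17% lower (4.04% either way, and 7.81% and 8.5% at the unadjusted p). The 2 calls thus lie close to this background. DESeq2 called 1 and 0 (2 and 0) of the 54, and limma-voom called 2 and 0 (5 and 3). Ddit4 (REDD1), a stress-induced inhibitor of mTORC1, had 89.0 and 98.1 CPM in Kdm6b-cKO and 59.0 and 73.2 CPM in WT cerebella (0.50 ± 0.10, SE, edgeR adjusted p = 0.00375). Pabpc4, a cytoplasmic poly(A)-binding protein, had 42.1 and 46.5 CPM in Kdm6b-cKO and 35.7 and 30.7 CPM in WT cerebella (0.42 ± 0.12, SE, edgeR adjusted p = 0.0458). Groups did not overlap in either, with Kdm6b-cKO higher, as in 23.2% of all tested genes. The Ddit4 call was lost with no filter (edgeR adjusted p = 0.0679) and without WT 1 (0.35, edgeR adjusted p = 0.102), cKO 1 (edgeR adjusted p = 0.319) or cKO 2 (edgeR adjusted p = 0.494), and the Pabpc4 call was lost in DESeq2 (adjusted p = 0.188), with upper-quartile scaling (edgeR adjusted p = 0.0610), with no filter (edgeR adjusted p = 0.169) and without WT 2 (edgeR adjusted p = 0.390), cKO 1 (edgeR adjusted p = 0.326) or cKO 2 (edgeR adjusted p = 0.494).

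Ddit4 was the 1 gene called among 14 tested targets of the integrated stress response, whose median was −0.03. Atf4, the transcription factor at the centre of that response, had 90.7 and 103.8 CPM in Kdm6b-cKO and 98.6 and 97.1 CPM in WT cerebella (−0.01), and Ddit3 (CHOP) had 17.6 and 19.3 CPM in Kdm6b-cKO and 18.6 and 17.3 CPM in WT cerebella. Both overlapped between groups. Asns, a well-known ATF4 target, was lower at 41.0 and 42.5 CPM in Kdm6b-cKO than at 50.6 and 46.1 CPM in WT cerebella, without passing (−0.21, edgeR adjusted p = 0.326). In edgeR, 0 genes were called among the 6 termination and recycling factors, 2 eIF2 phosphatase subunits, 10 mTOR and MNK genes, 8 hypusine and diphthamide enzymes and 9 mitochondrial factors, where 1 termination and 1 mTOR or MNK gene were higher and 1 mitochondrial factor lower at the unadjusted p. DESeq2 and limma-voom called 0 in those lists too, with 0 genes in DESeq2 and the same numbers in limma-voom at the unadjusted p.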

How the data were processed

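The authors made the deposited counts from paired reads of poly(A) RNA: per the paper's methods and the submitters' processing notes, reads went through Trimmomatic 0.38 and then STAR 2.7.2b, against GRCm38 (mm10), and HTSeq counted them over exons, as whole counts per gene, with no normalization. Between 39.01% and 40.51% of the entries in a file fell in genes, and the remainder (no feature, ambiguous, not unique and the like) was left out. Whether counting used strand is not given in the sources used here.

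Here, counts were filtered (filterByExpr), TMM-scaled and fitted with edgeR 4.0.16 (R 4.3.3), genotype only, with Benjamini-Hochberg adjustment over 16617 genes. SE is the fold change divided by the square root of F. Exon lengths and shared 75-base words came from GENCODE M21, and promoters from RefSeq (GRCm38.p6), matched by symbol for 49 of 61 members. Scripts were checked on simulated counts. The 13 alternative settings included DESeq2 1.42.0 and limma-voom (limma 3.58.1).

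Members and gene lists were chosen with earlier results of these data known. Named were each called member, the 3 largest and 3 smallest changes, paralog family members, the most abundant member of each role, and up to 3 called genes of each other list. Members named beyond this rule were chosen after their values were seen. The depth, 8811849 to 9892363 counts in genes per library, gave a median SE of 0.10 for members. Replicates are separate mice, 2 a group. The labels of replicate 2 carry the number 1 in their description, and the title was followed. The labels give no sex.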

Additional observations from a re-analysis of the deposited data

How the results depend on the processing

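Eef1a2 stayed lower in Kdm6b-cKO cerebella under all 13 alternative settings (log2 fold change −0.63 to −0.52). The number of members called higher (1) was 2 with scaling by library size alone and 2 with the replicate block, and 0 with upper-quartile scaling, with no filter on low counts and in DESeq2. Leaving out 1 library gave 0 to 1 members higher and 0 to 1 lower. For all genes (310 higher and 361 lower), the counts were 71 and 106 with no filter, 137 and 183 in DESeq2, 549 and 581 with the replicate block, 0 to 263 and 0 to 244 without 1 library, 434 and 292 with library size alone, and 239 and 407 with upper-quartile scaling. In each fit without 1 library, the lone library of that genotype is assumed to vary like the other genotype. Without cKO 1 or cKO 2, edgeR called 0 genes (2315 and 1718 at an unadjusted p of 0.05). Without WT 1 it called 173 and 195, and without WT 2 263 and 244. The median member was 0.0903 with library size alone, 0.0311 in limma-voom and 0.0356 to 0.0710 without 1 library.

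Library size alone moved the median of all genes by 0.03 and upper-quartile scaling by −0.02. Members near 0 changed sign: Eif1b (0.0037) and Eif5 (0.0115) with library size alone, Eif4a3 (−0.0068), Eif4e2 (−0.0104) and Eif4g3 (−0.0033) with upper-quartile scaling, and Eif4ebp3 (−0.0653) in limma-voom. Without 1 library, values ran over −0.0949 to 0.0460 for Eif1b, −0.0433 to 0.202 for Eif2b4, −0.0937 to 0.0046 for Eif3h, −0.19 to 0.0049 for Eif4e, −0.0315 to 0.0502 for Eif4e2, −0.24 to 0.32 for Eif4e3, −1.17 to 0.75 for Eif4ebp3, −0.0117 to 0.0458 for Eif4g3 and −0.0767 to 0.0400 for Eif5. The cause was not tested.

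With CPM not divided by exon length, the shares in Kdm6b-cKO cerebella were 30.2% for Eef1a2, 59.6% for Eif4a2 and 18.4% for Eif5a2, against 34.1%, 54.5% and 9.66% per kilobase. Replicate numbers were not shown to pair the mice (correlation of deviations 0.06, 2 pairs). With the replicate block, Eif4a1 passed (0.25, edgeR adjusted p = 0.00687). Depth limits low members most: the SE was 0.63 at its largest, in Eif4ebp3.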
